A study of Mus musculus with 11 samples.

Results

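Teneurins, latrophilins and FLRTs are 3 families of cell-surface proteins that bind one another across the gap between neurons. The 10 mouse genes that encode them, Tenm1, Tenm2, Tenm3 and Tenm4, Adgrl1, Adgrl2 and Adgrl3, and Flrt1, Flrt2 and Flrt3, were taken by symbol from RNA-seq count tables of developing mouse retina that list 47069 genes. All 10 were found, and all 10 passed the filter on low counts that left 18188 genes for testing.

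Teneurins are large single-pass membrane proteins that pair with themselves and with latrophilins. Latrophilins are adhesion G-protein-coupled receptors whose outer part binds teneurins and FLRTs, often from the opposite side of a synapse. FLRTs are leucine-rich repeat proteins that bind latrophilins in adhesion and the netrin receptors of the Unc5 family in repulsion. In the visual system, teneurin-3 is known for its part in the wiring of retinal ganglion cells, the neurons whose axons leave the eye, both within the retina and in their targets.

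By its title, the study asked whether the axons of the eye need correlated perinatal activity to connect with nuclei that do not serve image vision. The 11 libraries held total RNA from retinas of C57BL/6 mice in 4 groups: wild type at postnatal day 4 (P4, n = 2), Brn3b-Kir2.1 at P4 (n = 3), wild type at P8 (n = 3) and Brn3b-Kir2.1 at P8 (n = 3). Brn3b-Kir2.1 mice, called Kir2.1 here, combined Brn3b-Cre with a transgene of human Kir2.1, a potassium channel that holds neurons near rest, fused to eYFP and placed behind a CAG promoter and a floxed STOP cassette. The transgene is therefore limited to cells in which Brn3b-Cre is or was active, among them ganglion cells, while the RNA came from all cells of the dissociated retina, with no sorting step named. The labels are at odds on 3 points: the protocol gives P11 where the age field gives P8, it names Brn3b-cre mice where the genotype field gives wild type, and the source field names retinal ganglion cells where the tissue field gives retina. The field values for age, genotype and tissue are used here. Whether a library came from 1 animal or a pool, and whether libraries of a group came from separate animals, is not stated. The tests therefore weigh differences against the spread between these libraries, pooled over the 4 groups, which may be in part technical.

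Counts assigned to genes ran from 9362215 to 12478838 per library, and the 10 genes had from 104 to 5809 counts in a library. In a principal component analysis, 41.6% of the variance lay on an axis that separated the ages, with wild-type P4 replicate 2 at -16.4 and the other P4 libraries at or below -55.4. The third wild-type P8 library stood at -39.7 on the next axis, against 74.6 and 28.4 for the others of its group, and Kir2.1 P8 replicate 2 had the most genes with a count, 31325 against at most 24591 elsewhere. Markers of many cell types were present: the summed CPM (counts scaled to a fixed library total, with TMM factors) of 12 rod genes ran from 289 to 8139 and that of 12 ganglion-cell genes from 268 to 1477, so the libraries did not hold ganglion cells alone. Mouse Kcnj2, the gene whose human form was expressed, was at 2.45 to 10.6 CPM at P4 and 3.74 to 17.2 CPM at P8, with overlapping genotypes. Since the transgene is the human form, these counts give no check of the genotype labels.

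The promoters of 1 teneurin, 1 FLRT and 2 latrophilins are shown because Tenm4, Adgrl3 and Flrt2 fell from P4 to P8 in Kir2.1 retinas, as described further on, whereas Adgrl1, the most abundant of the 10 per length, did not pass that test. Each is the 250 bases before the gene's start in RefSeq (GRCm38.p6), all on the plus strand, 5′ to 3′, with matches to 5 searched strings in capitals. A window was held for 9 of the 10 genes, Flrt1 being the other, and where a gene had more than 1 the window nearest its annotated start was taken. Those of Tenm1, Tenm2, Tenm3 and Adgrl2 began 35920 to 291723 bases inside the gene as GENCODE M21 (GRCm38) annotates it and are not shown. The printed windows of Tenm4, Flrt2 and Adgrl1 end within 7 bases of the GENCODE start, whereas that of Adgrl3 lies inside the GENCODE gene, its RefSeq start being 433 bases beyond the GENCODE start. The window of Flrt3 is left out because 1 falling gene per family is shown and Flrt3 passed no age test.
Tenm4, chr7:96170994-96171243: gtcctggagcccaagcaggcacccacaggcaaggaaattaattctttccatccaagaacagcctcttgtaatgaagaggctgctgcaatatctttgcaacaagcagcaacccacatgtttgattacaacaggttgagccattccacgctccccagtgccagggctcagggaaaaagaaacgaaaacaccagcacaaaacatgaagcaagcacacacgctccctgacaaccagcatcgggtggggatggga
Adgrl3, chr5:81020321-81020570: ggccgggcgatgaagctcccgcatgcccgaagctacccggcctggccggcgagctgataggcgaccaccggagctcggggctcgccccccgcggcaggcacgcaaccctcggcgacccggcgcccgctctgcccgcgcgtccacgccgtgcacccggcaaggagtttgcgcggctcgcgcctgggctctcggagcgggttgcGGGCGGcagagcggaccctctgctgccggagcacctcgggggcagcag
Flrt2, chr12:95691976-95692225: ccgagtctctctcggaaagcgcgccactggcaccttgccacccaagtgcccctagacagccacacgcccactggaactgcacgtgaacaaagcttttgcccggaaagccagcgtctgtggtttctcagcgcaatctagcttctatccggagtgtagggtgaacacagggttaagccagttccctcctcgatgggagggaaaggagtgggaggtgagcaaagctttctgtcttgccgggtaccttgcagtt
Adgrl1, chr8:83899848-83900097: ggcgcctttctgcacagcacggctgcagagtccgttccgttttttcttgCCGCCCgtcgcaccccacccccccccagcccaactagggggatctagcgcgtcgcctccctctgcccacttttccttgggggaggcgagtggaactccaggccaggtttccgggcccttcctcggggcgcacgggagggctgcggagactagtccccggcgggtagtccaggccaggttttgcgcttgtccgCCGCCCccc

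The strings searched on both strands were the GC box GGGCGG, the CCAAT box CCAAT, the TATA box TATAAA, the cyclic AMP response element TGACGTCA and the homeodomain core TAATTA, and no match overlapped one to another string. The GC box was matched 2 times in the Adgrl1 window and 1 time in that of Adgrl3, and it was present in 32.7% of all 32851 windows of this length. None of the 5 strings was found in the Tenm4 or Flrt2 window. CCAAT is in 33.8% of all windows, TATAAA in 12.4%, TGACGTCA in 1.55% and TAATTA in 4.84%, and none of these 4 was in any of the windows printed. The base composition of the 4 windows differed: G and C made up 50.8% of the Tenm4 window, 57.2% of that of Flrt2, 68.8% of that of Adgrl1 and 76.8% of that of Adgrl3, against a median of 52.4% over all windows.

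The genes themselves differ widely in size. In GENCODE M21 on GRCm38, Tenm1 lies at chrX:42527866-43429126, Tenm2 at chr11:36006656-37235964 and Tenm3 at chr8:48227682-48843951, all on the minus strand, and Tenm4 at chr7:96171246-96911093 on the plus strand. Among the latrophilins, Adgrl1 is at chr8:83900105-83941954 and Adgrl3 at chr5:81020138-81825133 on the plus strand, and Adgrl2 is at chr3:148815583-148990555 on the minus strand. Flrt2 is at chr12:95692226-95785215 on the plus strand. The 2 FLRT genes on the minus strand, Flrt1 at chr19:7092001-7105729 and Flrt3 at chr2:140650914-140671469, each lie inside a gene on the opposite strand, Macrod1 and Macrod2, with no exon base shared. Exons of a gene on the opposite strand overlap those of Tenm1 (Sh2d1a, 1465 bases), Adgrl3 (Gm16054, 1582 bases), Adgrl1 (Gm10644, 1107 bases), Tenm4 (C230038L03Rik, 988 bases), Adgrl2 (Gm43573, 202 bases) and Tenm3 (Gm19744, 114 bases). The strand setting of the authors' counting is not stated, and without strand the reads of such a pair cannot be told apart. These neighbours had between 23 and 408 counts over all 11 libraries.

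Adgrl1 had the highest level per length in all 11 libraries. Divided by the length of its merged exons, its level was 48.3 ± 7.48 CPM per kilobase (SD over all 11 libraries, range 37.7 to 60.9), and this range lay clear of that of the next gene. Tenm3 followed at 24.7 (range 15.7 to 31.5), Adgrl3 at 19.2 (13.1 to 24.3) and Tenm4 at 14.0 (8.12 to 20.3). The ranges of Tenm3 and Adgrl3 overlapped across the groups, yet within each library Tenm3 was the higher of the pair, in 11 of 11 libraries, as Adgrl3 was above Tenm4 in 11 of 11. By group means, the order of Tenm4 and Tenm2 held at P4 alone: Tenm4 was the higher in 7 of 11 libraries, with group means of 18.9 and 12.8 in wild type and 18.7 and 9.45 in Kir2.1 at P4, and of 10.5 and 11.8 in wild type and 9.61 and 10.1 in Kir2.1 at P8. Tenm2, at 10.9 CPM per kilobase (7.55 to 15.3), and Adgrl2, at 10.6 (8.69 to 13.1), could not be ordered, Tenm2 being the higher in 6 of 11 libraries. The FLRTs and Tenm1 formed the low end. Flrt3 stood at 5.70 (3.30 to 8.29), Flrt2 at 5.69 (2.85 to 8.55), Flrt1 at 4.22 (1.44 to 7.57) and Tenm1 at 3.57 (1.899 to 6.31) CPM per kilobase, and neighbours in this order overlapped. By the ratio of highest to lowest library, Flrt1 varied most, 5.27-fold, and Adgrl2 least, 1.502-fold.

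**Figure D1:**
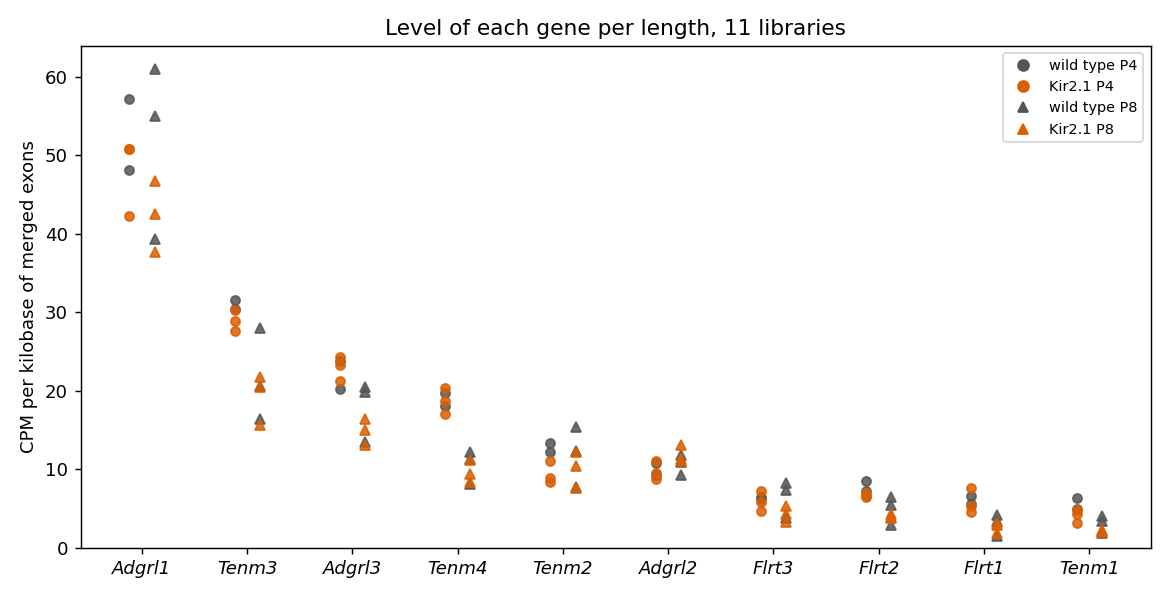
Level of each of the 10 genes in CPM per kilobase of merged exons (vertical axis), with 1 point for each of the 11 libraries, shaped by age and coloured by genotype, and genes ordered by their mean. The points of Adgrl1 lie between 37.7 and 60.9, above every point of the other genes, and those of Tenm1 lie between 1.899 and 6.31.

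For the teneurins Tenm4, Tenm3 and Tenm1 and the FLRTs Flrt1 and Flrt2, every P8 library lay below every P4 library of its genotype, in wild type and in Kir2.1, although of these only Tenm4 passed the test in wild type. In Kir2.1 retinas 6 of the 10 genes fell (edgeR quasi-likelihood test, adjusted p under 0.05), where 8.73% of all 18188 genes fell and 7.93% rose. In wild-type retinas 1 of the 10, Tenm4, fell, where 3.58% of all genes fell and 0.803% rose. Tenm4 was thus the only one of the 10 called in both genotypes, as were 3.28% of all genes. The median log2 fold change of the 10 was -0.61 in Kir2.1 and -0.41 in wild type, beside 0.00 and 0.03 over all genes tested. The age comparisons of the genotypes share no library.

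**Figure D2:**
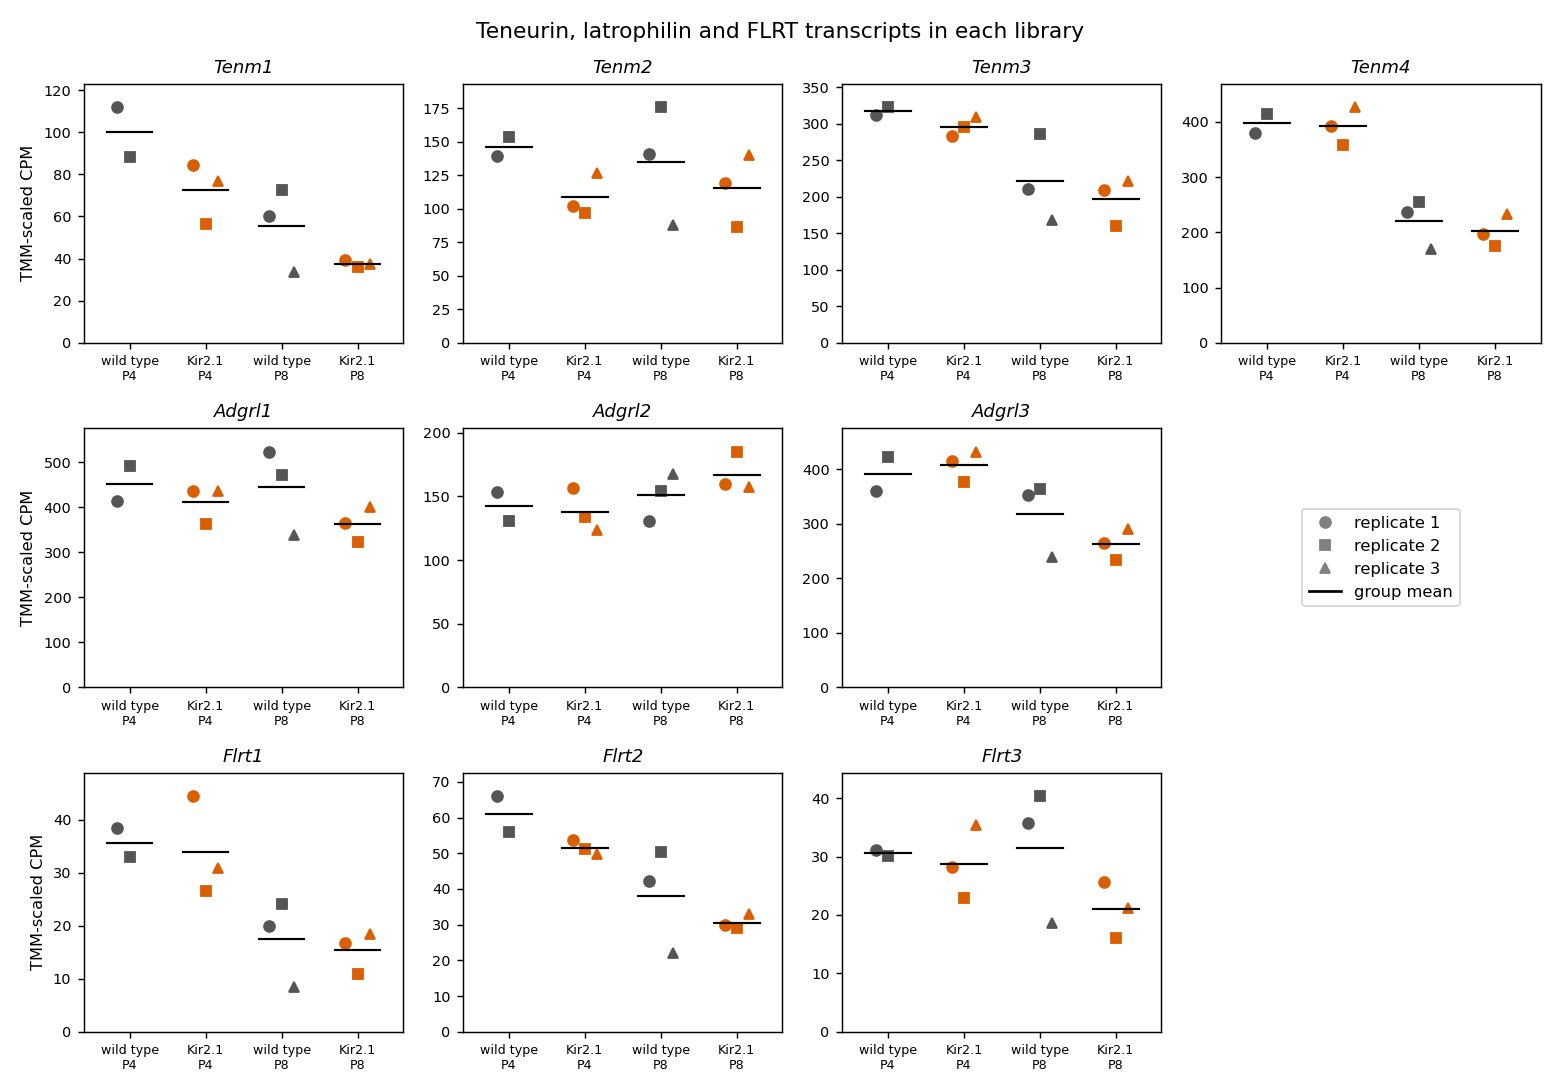
TMM-scaled CPM (vertical axes, each from 0) of each gene in each of the 11 libraries, by group, with symbols for replicate number and a bar at the group mean. Tenm4 lies between 357.5 and 426.5 in the P4 libraries and between 171 and 255 in the P8 libraries, while Adgrl2 stays between 123.3 and 185 throughout.

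Among the teneurins, Tenm4 stood at 379.7 and 415 CPM in wild-type retinas of P4 and at 237, 255 and 171 CPM at P8. In Kir2.1 retinas it was at 393, 357.5 and 426.5 CPM at P4 and at 197, 175 and 234 CPM at P8. Every P8 library was below every P4 library. The log2 fold change was -0.85 ± 0.17 (SE, edgeR adjusted p = 0.014) in wild type and -0.96 ± 0.16 (edgeR adjusted p = 0.00175) in Kir2.1. The call in Kir2.1 was made with each library left out in turn. That in wild type was lost without wild-type P4 replicate 1, which leaves 1 library at P4 (log2 fold change -0.91). It was also lost in a fit to the wild-type libraries alone (-0.86, edgeR adjusted p = 0.115).

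Tenm1, the X-linked teneurin, was at 112 and 88.1 CPM in wild type at P4 and at 60.2, 72.5 and 33.7 CPM at P8. In Kir2.1 it was at 84.2, 56.4 and 76.8 CPM at P4 and at 39.3, 36.0 and 37.6 CPM at P8. In both genotypes the ages did not overlap. It fell in Kir2.1 (-0.94 ± 0.24, edgeR adjusted p = 0.0188), and the wild-type difference of -0.85 ± 0.26 did not pass (edgeR adjusted p = 0.0919).

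Tenm3, the teneurin with a known part in visual wiring, was at 312 and 323 CPM in wild type at P4 and at 211, 286 and 168 CPM at P8. In Kir2.1 its levels were 283, 295 and 309 CPM at P4 and 209, 160.2 and 222 CPM at P8. Again no P8 library reached a P4 library of its genotype. The fall passed in Kir2.1 (-0.58 ± 0.18, edgeR adjusted p = 0.0401) and not in wild type (-0.52 ± 0.19, edgeR adjusted p = 0.162).

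Tenm2 was the exception among the teneurins. It was at 139.6 and 153 CPM in wild type at P4 and at 141, 176 and 88.3 CPM at P8, and at 102, 96.6 and 127 CPM in Kir2.1 at P4 and 119, 86.7 and 140.4 CPM at P8. The ages overlapped in both genotypes, with log2 fold changes of -0.12 ± 0.26 and 0.09 ± 0.23 (edgeR adjusted p = 0.853 and 0.849).

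Of the latrophilins, the receptors of both other families, 1 of 3 passed the age test in Kir2.1 and none in wild type. Adgrl3 was at 359 and 422 CPM in wild type at P4 and at 352, 363 and 238 CPM at P8, with overlap. In Kir2.1 it was at 414, 377 and 432 CPM at P4 and at 265, 233 and 290.2 CPM at P8, with none. It fell in Kir2.1 (-0.63 ± 0.16, edgeR adjusted p = 0.0159), and in wild type the difference was -0.30 ± 0.17 (edgeR adjusted p = 0.392).

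Adgrl1 was at 414 and 490.5 CPM in wild type at P4 and at 523, 472 and 337 CPM at P8. In Kir2.1 it was at 436, 363 and 436 CPM at P4 and at 365, 324 and 401 CPM at P8. The ages overlapped in both genotypes, with differences of -0.03 ± 0.18 and -0.18 ± 0.16 (edgeR adjusted p = 0.958 and 0.502). Adgrl2 had a positive estimate in both, 0.09 ± 0.15 in wild type and 0.28 ± 0.13 in Kir2.1, neither of which passed (edgeR adjusted p = 0.808 and 0.186). Its Kir2.1 libraries were at 156, 134 and 123.3 CPM at P4 and at 159.5, 185 and 157 CPM at P8, without overlap, as 19.4% of all genes were without overlap and higher at P8. The wild-type libraries of Adgrl2 overlapped, at 154 and 131 CPM at P4 and 131, 154.5 and 168 CPM at P8.

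Of the FLRTs, the ligands that latrophilins share with Unc5 receptors, Flrt1 had the lowest mean level per length and the widest errors of its age estimates. It was at 38.5 and 32.9 CPM in wild type at P4 and at 19.9, 24.2 and 8.45 CPM at P8, and at 44.5, 26.6 and 31.0 CPM in Kir2.1 at P4 and 16.8, 10.8 and 18.5 CPM at P8. The ages did not overlap in either genotype. The log2 fold change was -1.14 ± 0.34 in Kir2.1 (edgeR adjusted p = 0.0377) and -1.03 ± 0.37 in wild type (edgeR adjusted p = 0.143).

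Flrt2 was at 66.0 and 56.1 CPM in wild type at P4 and at 42.2, 50.3 and 22.0 CPM at P8. In Kir2.1 its levels were 53.6, 51.2 and 49.9 CPM at P4 and 29.8, 29.0 and 33.0 CPM at P8. It was lower in every P8 library than in any P4 library of its genotype, a fall that passed in Kir2.1 (-0.75 ± 0.23, edgeR adjusted p = 0.0436) and not in wild type (-0.68 ± 0.25, edgeR adjusted p = 0.16).

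Flrt3 was at 31.2 and 30.1 CPM in wild type at P4 and at 35.7, 40.3 and 18.6 CPM at P8, and at 28.1, 22.9 and 35.4 CPM in Kir2.1 at P4 and 25.7, 16.0 and 21.1 CPM at P8. Its ages overlapped in both genotypes (0.04 ± 0.30 and -0.45 ± 0.27, edgeR adjusted p = 0.959 and 0.299).

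Counted by overlap alone, 5 of the 10 genes lay lower at P8 without overlap in wild type, where 16.9% of all genes did, and 6 of the 10 in Kir2.1, where 18.7% did. Of the 6 calls in Kir2.1, that of Tenm4 was kept whichever library was left out, and fewer than 6 passed in each such fit: 1 gene (Tenm4) passed without Kir2.1 P4 replicate 1, P4 replicate 3 or P8 replicate 2, 2 (Tenm4 and Adgrl3) without P8 replicate 1 or P8 replicate 3, and 4 (these, Tenm1 and Flrt1) without P4 replicate 2. Over these fits the log2 fold change stayed between -1.10 and -0.85 for Tenm1, -0.68 and -0.46 for Tenm3, -0.71 and -0.55 for Adgrl3, -1.29 and -0.92 for Flrt1 and -0.81 and -0.72 for Flrt2. With a replicate block, described in the last section, Tenm3, Flrt1 and Flrt2 did not pass in Kir2.1. Whether the age change differs between genotypes is the same contrast as the difference of the genotype effects, given further on, in which none of the 10 genes passed.

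**Figure D3:**
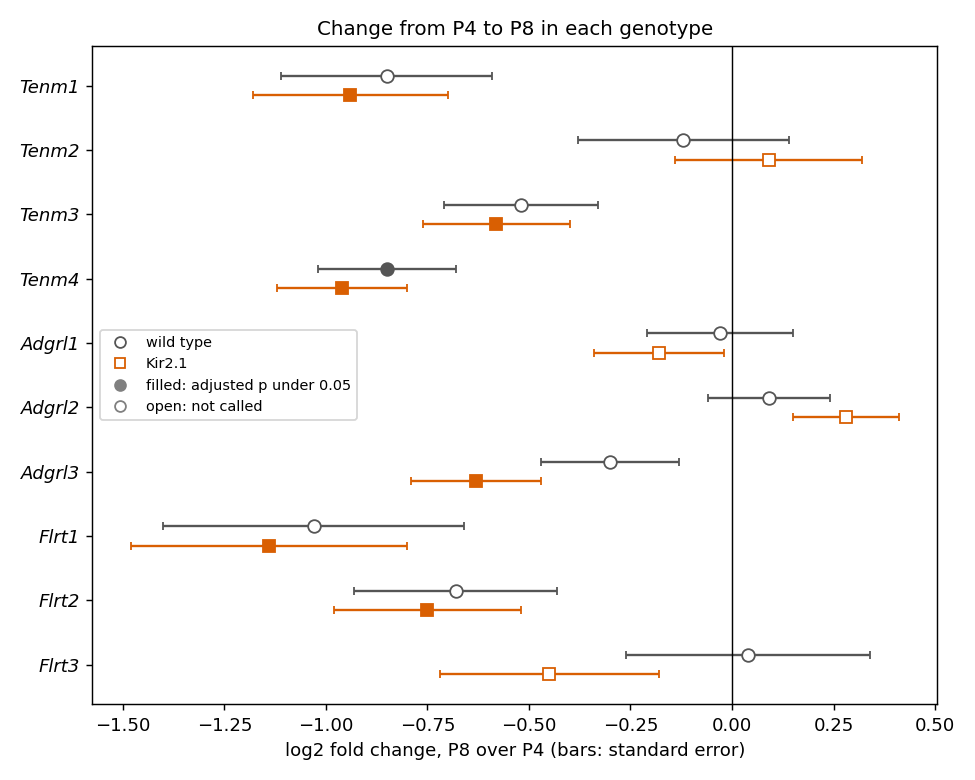
Log2 fold change of P8 against P4 (horizontal axis, log2 scale) for each gene in wild type and in Kir2.1, with bars of 1 SE and filled symbols for an adjusted p under 0.05 (edgeR). Tenm4 is filled in both genotypes, Tenm1, Tenm3, Adgrl3, Flrt1 and Flrt2 in Kir2.1, and Tenm2, Adgrl1, Adgrl2 and Flrt3 in neither.

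Markers of several cell types also differed between the ages. The 10 markers of dividing progenitors were lower at P8 in 10 of 10 genes in each genotype, with summed levels of 928 to 2611 CPM over the P4 libraries and 104 to 148 CPM over the P8 libraries. All 12 rod markers and all 9 bipolar-cell markers were higher at P8 in each genotype. The rod sum was 289 to 1422 CPM in wild type at P4 and 926 to 8139 CPM at P8, and 531 to 908 CPM and 7625 to 7870 CPM in Kir2.1. The 12 ganglion-cell markers were lower in 10 of 12 genes in each genotype, with sums of 1012 to 1477 CPM and 408 to 508 CPM in wild type and 268 to 768 CPM and 451 to 531 CPM in Kir2.1. Amacrine-cell markers were lower in 6 of 9 genes in Kir2.1, with sums of 1955 to 2334 CPM at P4 and 1156 to 1928 CPM at P8, and in 4 of 9 in wild type, with 1936 to 2503 CPM and 1305 to 3522 CPM. Cone markers were higher at P8 in 8 of 9 genes in Kir2.1 (318.5 to 459.9 CPM and 478 to 618 CPM) and in 7 of 9 in wild type (302 to 433 CPM and 333 to 686 CPM). All 9 microglial markers were lower at P8 in each genotype, with sums of 190 to 343 CPM and 93.6 to 158 CPM in wild type and 252 to 405 CPM and 90.3 to 296 CPM in Kir2.1. None of the progenitor, rod, microglial or ganglion-cell markers was at 0 in every library of a group. In bulk RNA, fewer cells of a type and less RNA per cell cannot be told apart, and the part of these cell types in the change of the 10 genes was not tested.

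Levels were also summed over each family, as a description with no test. The 4 teneurins together were at 943 and 979 CPM in wild type at P4 and 649, 789 and 460.2 CPM at P8, and at 862, 805 and 939 CPM in Kir2.1 at P4 and 565, 458 and 634 CPM at P8. For the 3 latrophilins the sums were 926 and 1043 CPM in wild type at P4, 1006, 989 and 743 CPM at P8, and 1007, 874 and 991 CPM in Kir2.1 at P4, then 789.8, 741 and 848 CPM at P8. The 3 FLRTs together reached 136 and 119 CPM in wild type at P4, 97.8, 115 and 49.1 CPM at P8, 126, 101 and 116 CPM in Kir2.1 at P4 and 72.3, 55.8 and 72.6 CPM at P8. Teneurin and FLRT sums therefore lay lower at P8 without overlap in both genotypes, and latrophilin sums without overlap in Kir2.1 but with overlap in wild type. These sums are dominated by the abundant genes of each family.

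**Figure D4:**
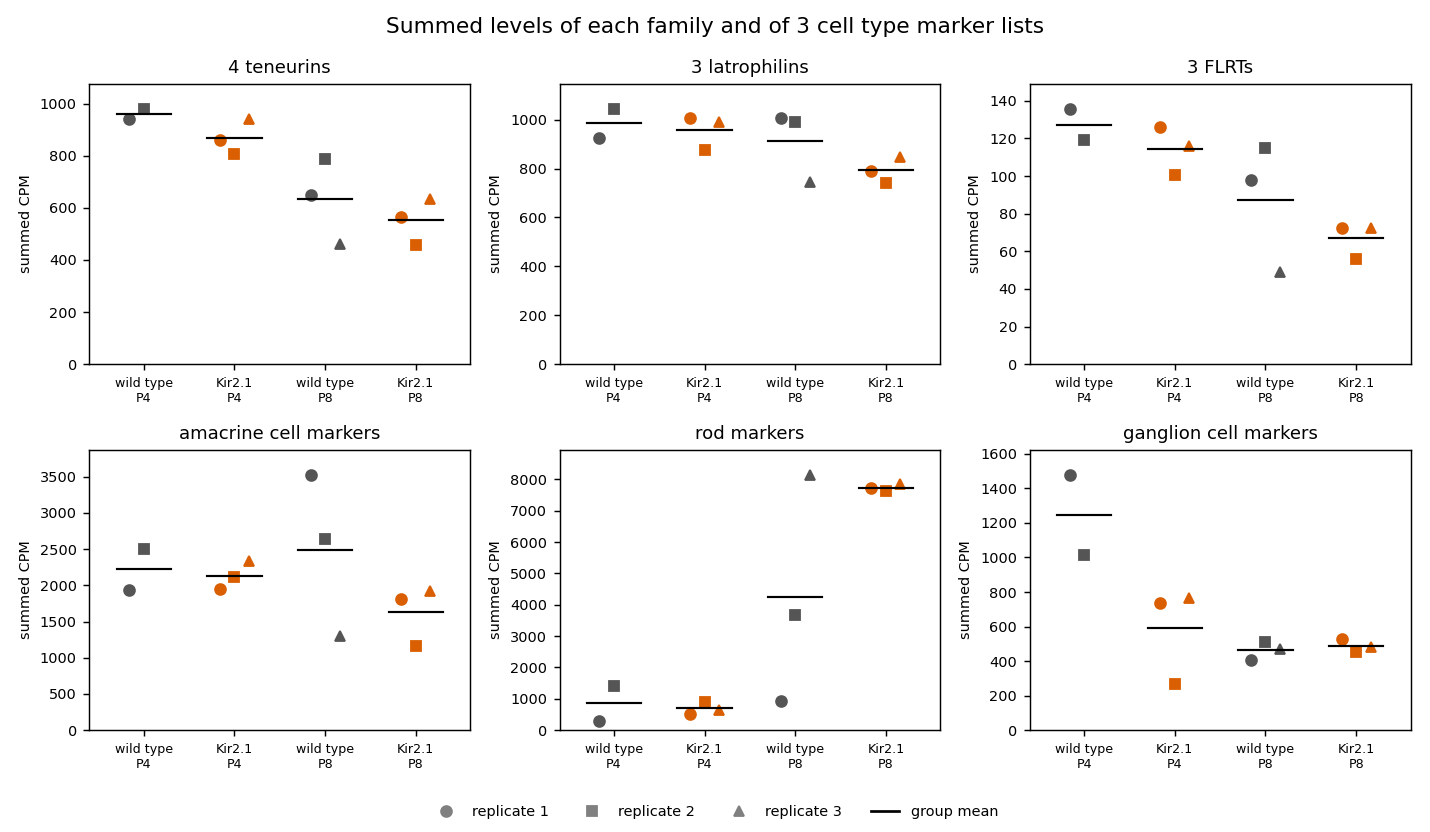
Summed TMM-scaled CPM (vertical axes, each from 0) of the 4 teneurins, the 3 latrophilins and the 3 FLRTs, and of the marker lists for retinal ganglion cells, amacrine cells and rods, with 1 symbol per library and a bar at the group mean. Wild-type P8 replicate 3 is the lowest library of its group for all 3 families and for amacrine cells (1305), and the highest for rods (8139).

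The effect of Kir2.1 was then examined at each age, to ask whether damping ganglion cells changes transcripts of this adhesion system. At P4, none of the 10 genes passed, as none of all 18188 genes did (0%; edgeR). The unadjusted p was under 0.05 for 1314 genes (7.22%), none of them among the 10, and the DESeq2 Wald test called 33 genes, again none of the 10. The estimates were lower in Kir2.1 for 9 of the 10 genes, where 48.7% of all genes were lower, with a median of -0.09 beside 0.01.

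The largest P4 estimates belonged to Tenm1 (-0.47 ± 0.26, edgeR adjusted p = 0.72) and Tenm2 (-0.43 ± 0.26, edgeR adjusted p = 0.729). With 1 library left out, they ran from -0.62 to -0.29 for Tenm1 and from -0.56 to -0.35 for Tenm2. Tenm1 was at 112 and 88.1 CPM in wild type and at 84.2, 56.4 and 76.8 CPM in Kir2.1, and Tenm2 at 139.6 and 153 CPM against 102, 96.6 and 127 CPM. For these and for Tenm3 and Flrt2 every Kir2.1 library lay below both wild-type libraries, 4 of the 10 genes, where 14.4% of all genes showed such a gap. The differences of Tenm3 (-0.10 ± 0.19) and Flrt2 (-0.24 ± 0.25) were no larger than their errors (edgeR adjusted p = 0.915 and 0.842). The others ranged from -0.14 ± 0.18 for Adgrl1 to 0.06 ± 0.17 for Adgrl3, with Tenm4 at -0.02 ± 0.17, Adgrl2 at -0.04 ± 0.15, Flrt1 at -0.07 ± 0.37 and Flrt3 at -0.09 ± 0.30 (edgeR adjusted p from 0.873 to 0.988).

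Beside this, all 12 ganglion-cell markers were lower in Kir2.1 at P4, with sums of 1477 and 1012 CPM in the wild-type libraries and 734, 268 and 768 CPM in Kir2.1. Kir2.1 replicate 2, the lowest of these, was also the lowest of its group for 7 of the 10 genes, Tenm1 and Tenm2 among them. Progenitor markers were higher in 10 of 10 genes, with 2500 and 928 CPM in wild type and 2108 to 2611 CPM in Kir2.1. All 9 microglial markers were higher too, with sums of 190 to 343 CPM and 252 to 405 CPM. Lower in Kir2.1 were 9 of 9 bipolar-cell markers (110.0 to 319 CPM in wild type and 114 to 118 CPM in Kir2.1), 4 of 4 horizontal-cell markers (123.4 to 146.5 CPM and 78.4 to 129 CPM) and 8 of 9 vascular markers (455 to 577 CPM and 449 to 751 CPM), with overlapping sums. For the progenitor, microglial and bipolar-cell sums, wild-type P4 replicate 2 stood apart from Kir2.1 (928, 190 and 319 CPM). Wild-type P4 replicate 1, at 2500, 343 and 110.0 CPM, lay within or next to the Kir2.1 range. The part of these marker differences in the values of Tenm1 and Tenm2 was not tested.

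At P8, no gene passed either (0% of 18188; edgeR), with 1240 genes (6.82%) at an unadjusted p under 0.05 and 3 called by the DESeq2 Wald test, none of them one of the 10. By the unadjusted p, 1 of the 10 genes was lower, Tenm1, where 3.93% of all genes were lower. The estimates were again lower in Kir2.1 for 9 of the 10 genes, where 49.5% of all genes were lower, and the median was -0.25 beside 0.00. In each of the 10 genes the genotypes overlapped, where 5.11% of all genes were lower and 5.50% higher without overlap.

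The P8 levels of Tenm1 were 60.2, 72.5 and 33.7 CPM in wild type and 39.3, 36.0 and 37.6 CPM in Kir2.1 (-0.56 ± 0.24, edgeR adjusted p = 0.7, unadjusted p = 0.0377). Those of Flrt3 were 35.7, 40.3 and 18.6 CPM and 25.7, 16.0 and 21.1 CPM (-0.59 ± 0.27, edgeR adjusted p = 0.7). In both genes the third wild-type library lay below most or all Kir2.1 libraries and the other wild-type libraries above all of them. The remaining estimates were -0.22 ± 0.23 for Tenm2, -0.17 ± 0.17 for Tenm3, -0.13 ± 0.15 for Tenm4, -0.29 ± 0.16 for Adgrl1, -0.28 ± 0.16 for Adgrl3, -0.18 ± 0.34 for Flrt1 and -0.32 ± 0.23 for Flrt2. Adgrl2, again the exception, stood at 0.15 ± 0.13, with 131, 154.5 and 168 CPM in wild type and 159.5, 185 and 157 CPM in Kir2.1. The edgeR adjusted p of these 8 genes lay between 0.7 and 0.911.

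**Figure D5:**
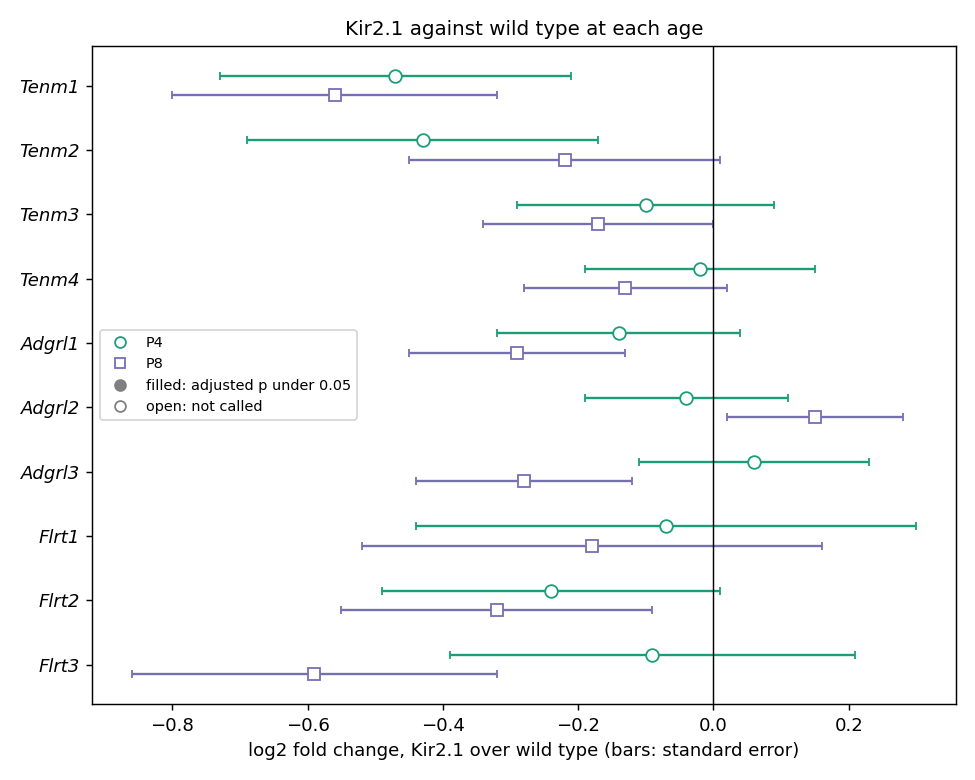
Log2 fold change of Kir2.1 against wild type (horizontal axis, log2 scale) for each gene at P4 and at P8, with bars of 1 SE and filled symbols for an adjusted p under 0.05 (edgeR). No symbol is filled, and 9 of the 10 genes lie below 0 at each age, from -0.47 (Tenm1) at P4 and from -0.59 (Flrt3) at P8.

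The size of the P8 difference depended on single libraries of both genotypes. Wild-type P8 replicate 3 was the lowest of the 3 wild-type libraries for 9 of the 10 genes and the highest for Adgrl2. With that library left out, Tenm1 fell in Kir2.1 (-0.82 ± 0.17, edgeR adjusted p = 0.0485), 1 of the 10 genes, where 0.677% of 18032 genes fell and 0.538% rose. By the unadjusted p, 7 of the 10 genes were then lower, where 10.2% of all genes were, and 8 of the 10 were lower without overlap, where 19.1% were. Adgrl2 was then higher without overlap, as 19.2% of all genes were. Flrt3 moved to -0.85 ± 0.21 (edgeR adjusted p = 0.0641), Flrt2 to -0.60 ± 0.13 (0.0525), Adgrl1 to -0.45 ± 0.13 (0.0829) and Adgrl3 to -0.45 ± 0.12 (0.0715), short of the threshold. Tenm2 moved to -0.45 ± 0.19, Tenm3 to -0.33 ± 0.15, Tenm4 to -0.29 ± 0.13, Flrt1 to -0.52 ± 0.26 and Adgrl2 to 0.23 ± 0.14 (edgeR adjusted p from 0.207 to 0.399). Leaving out wild-type P8 replicate 2 instead brought the estimates nearer to 0, with Tenm1 at -0.32, Flrt3 at -0.37, Adgrl1 at -0.24, Adgrl3 at -0.17, Flrt2 at -0.07 and Tenm4 at -0.01, and turned the sign of Tenm2 (0.01), Tenm3 (0.06) and Flrt1 (0.12). Adgrl2 was then at 0.16, and none of the 10 genes passed (edgeR adjusted p from 0.879 to 0.996). Leaving out Kir2.1 P8 replicate 2 also brought estimates nearer to 0, with Tenm2 at -0.05, Tenm3 and Tenm4 at -0.04, Adgrl2 at 0.07 and Flrt1 at 0.01, and leaving out wild-type P8 replicate 1 moved Adgrl1 to -0.16, Tenm4 and Flrt1 to -0.08 and Adgrl2 to 0.05. In neither fit did any of the 10 genes pass. Leaving out Kir2.1 P8 replicate 3 moved Tenm2 to -0.39, Tenm4 to -0.25 and Flrt1 to -0.34. Without Kir2.1 P8 replicate 1, Flrt3 was at -0.76, while Tenm4 (-0.11) and Flrt2 (-0.30) moved slightly nearer to 0. None of the 10 genes passed in these fits either.

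Cell-type markers in that library also lay apart. Amacrine-cell markers, 9 of 9 lower in Kir2.1 at P8, summed to 3522, 2646 and 1305 CPM in the wild-type libraries and 1805, 1156 and 1928 CPM in Kir2.1. Rod markers, 12 of 12 higher in Kir2.1, summed to 926, 3682 and 8139 CPM in wild type and 7725, 7625 and 7870 CPM in Kir2.1. Also higher in Kir2.1 were 9 of 9 microglial markers (93.6 to 158 CPM in wild type and 90.3 to 296 CPM in Kir2.1), 7 of 7 of Mueller glia (414 to 619.8 CPM and 416 to 715 CPM) and 8 of 9 of bipolar cells (405 to 1267 CPM and 800.0 to 1025 CPM). Ganglion-cell markers were lower in 10 of 12 genes, with sums of 408 to 508 CPM and 451 to 531 CPM. In the amacrine and rod lists, wild-type replicate 3 was nearer to the Kir2.1 libraries than to the others of its group, and wild-type replicate 1 had a rod sum within the range of the P4 libraries. Kir2.1 P8 replicate 2, the lowest of its group for 9 of the 10 genes, had pigment epithelium markers at 26.9 CPM, against 4.18 to 6.32 CPM in every other library. Its records that fell in no gene made up 69.4% of uniquely aligned records, against 57.0% to 62.4% elsewhere. The 8 lens markers summed to 31.3 CPM in wild-type P8 replicate 3 and 20.6 CPM in Kir2.1 P8 replicate 2, with none at 0 in either, against 3.23 to 11.3 CPM in the other libraries. The part of these differences in the P8 values was not tested.

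The authors' deposited table for P8 listed 4 of the 10 genes as lower at an adjusted p under 0.05, where 4.02% of its 13396 genes were lower and 3.25% higher. In the authors' deposited table these were Tenm1 (log2 fold change -0.75, adjusted p = 0.0134), Flrt3 (-0.87, adjusted p = 0.0151), Flrt2 (-0.63, adjusted p = 0.0399) and Adgrl1 (-0.45, adjusted p = 0.0487). The authors' deposited table put Adgrl3 at -0.44 (adjusted p = 0.0567) and the other 5 between -0.43 (Flrt1) and 0.23 (Adgrl2), with adjusted p from 0.236 to 0.541. The authors' deposited table for P4 called none of the 10, the smallest adjusted p being that of Tenm2 (-0.42, adjusted p = 0.265), where 1.09% of 13830 genes were lower. It gave positive values for Flrt3 (0.23), Flrt1 (0.1), Adgrl2 (0.06) and Adgrl3 (0.04), and negative values for the others. Of these, only Adgrl3 had a positive estimate in the edgeR fit with all libraries. Which libraries entered the authors' tables is not stated. For the 4 genes it called, the values of the authors' deposited table for P8 lay nearer to those of the edgeR fit without wild-type P8 replicate 3 (Tenm1 -0.82, Flrt3 -0.85, Flrt2 -0.60 and Adgrl1 -0.45) than to those of the fit with all libraries (-0.56, -0.59, -0.32 and -0.29). The same held for the rest of the 10 genes at P8. At P4, no edgeR fit with 1 library left out reached the authors' value for Flrt3 (0.23, against -0.26 to 0.06).

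The difference between the Kir2.1 effects at P8 and P4 was tested directly. It passed for none of the 10 genes and for none of all genes tested (0%; edgeR), and 562 genes (3.09%) had an unadjusted p under 0.05, none of them among the 10. Its estimates ran from -0.50 ± 0.41 for Flrt3 and -0.34 ± 0.23 for Adgrl3 to 0.19 for Adgrl2 and 0.21 ± 0.35 for Tenm2, all with an edgeR adjusted p of 1. With errors of this size, the lower values at P8 were not shown to differ from those at P4.

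Genes of the same adhesion system outside the 3 families numbered 19, all of which passed the filter: the Unc5 receptors and other FLRT partners, the neurexins that bind latrophilins, and other proteins that bind these molecules or their partners or carry their signals. None of them passed for genotype at either age, with medians of -0.12 at P4 and -0.03 at P8. With age, 2 of the 19 fell in wild type, and 5 fell and 2 rose in Kir2.1, where 3.58% of all genes fell in wild type, and 8.73% fell and 7.93% rose in Kir2.1. The medians of the 19 were 0.09 and -0.14. Robo1, a Slit receptor that binds Flrt3, fell in both, from 164 ± 18.5 to 79.6 ± 16.3 CPM in wild type (SD, n = 2 and n = 3; -1.04 ± 0.16, edgeR adjusted p = 0.00291) and from 191 ± 3.65 to 69.7 ± 4.57 CPM in Kir2.1 (n = 3 and n = 3; -1.45 ± 0.15, edgeR adjusted p = 0.000105). Fgfr1, a growth factor receptor that FLRTs bind, fell too, by 0.87 ± 0.21 on the log2 scale in wild type (edgeR adjusted p = 0.0338) and by 0.91 ± 0.19 in Kir2.1 (edgeR adjusted p = 0.00645).

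The genes of G-protein subunits known to carry signals of adhesion receptors, Gna12 and Gna13, fell in Kir2.1 by 0.99 ± 0.16 and 0.51 ± 0.12 on the log2 scale (edgeR adjusted p = 0.00184 and 0.0121). The wild-type differences of Gna12 (-0.58) and Gna13 (-0.41) did not pass (edgeR adjusted p = 0.0929 and 0.108). Nrxn3, a presynaptic neurexin, rose in Kir2.1 from 447 ± 25.2 to 767 ± 121 CPM (SD, n = 3 and n = 3; 0.78 ± 0.20, edgeR adjusted p = 0.0199), and in wild type its difference was 0.81 ± 0.23 (edgeR adjusted p = 0.07). Adgrl4, a relative of the latrophilins found mainly in endothelial cells, rose in Kir2.1 from 1.51 ± 1.52 to 10.04 ± 7.05 CPM (SD, n = 3 and n = 3; 2.75 ± 0.72, edgeR adjusted p = 0.0226). In wild type it was at 5.94 ± 1.52 CPM at P4 and 8.81 ± 4.84 CPM at P8 (SD, n = 2 and n = 3; 0.57 ± 0.73, edgeR adjusted p = 0.737). At P4 the genotype difference of Adgrl4 was -1.99 ± 0.78 and did not pass (edgeR adjusted p = 0.677). Of 9 vascular markers 8 were higher at P8 in Kir2.1, with sums of 449 to 751 CPM at P4 and 351 to 575 CPM at P8, and their part in the value of Adgrl4 was not tested.

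For the gene of each family with the highest mean CPM, not divided by length (Tenm4, Adgrl1 and Flrt2), the genes with the most similar profile over all 11 libraries were listed among 12187 genes with a mean of at least 5 CPM. Likeness was the mean absolute difference of log2 CPM, each gene centred on its own mean. Closest to Tenm4 were Cdh4 (0.067), Rims3 (0.081) and Slc22a15 (0.120), where the median candidate differed by 0.492. Closest to Adgrl1 were Mical3 (0.044), Myo5a (0.049) and Ttc3 (0.049), with a median of 0.286. Flrt2 was nearest to Cpne5 (0.097), Phldb1 (0.106) and Nrcam (0.116), with a median of 0.463. The lists are a description of these 11 libraries, which all the genes share.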

How the data were processed

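Per the submitters' processing notes, the tools were cutadapt 1.18, STAR 2.5.0c, SAMtools 1.9, bedtools 2.26.0, HTSeq 0.6.1 and DESeq2 on mm10, and their roles, annotation and strand setting are not given in the sources used here. The authors deposited 1 table of raw counts per Ensembl gene for each of the 11 libraries. Records that name no gene (74.6% to 79.8% of a library's records) were left out. Per the file headers, the authors' comparison tables hold a mean normalized count (a signal in their own scaling), a log2 fold change, a score (that change over its standard error), and p-values before and after adjustment. Gene symbols were found for 46488 of 47069 IDs.

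The counts were fitted in edgeR 4.0.16 (R 4.3.3): filterByExpr by group, TMM scaling (factors from 0.964 to 1.05), 1 quasi-likelihood model of 4 group means over all 11 libraries (7 residual degrees of freedom, common biological coefficient of variation 0.247) and Benjamini-Hochberg adjustment over 18188 genes, with a threshold of 0.05. CPM values are TMM-scaled, and levels between genes were divided by merged exon length. A simulation was run as a check of the code. Its spread between libraries was smaller than that of these data, so it does not test the fit for them. Groups, ages and replicate numbers came from the titles. Same-numbered libraries of different groups deviated together weakly at most (3 of 15 pairs with a correlation over 0.1, the highest 0.139). No block was used in the main fit, although these correlations cannot exclude a pairing.

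The 10 genes, the 19 partners, the cell-type markers and the rules for naming were chosen with earlier results of these data known. All 10 genes were named, partners that passed (at most 6, by smallest p), and for the gene with the highest mean CPM of each family the 3 most similar genes, from log2 CPM with a prior count of 2. The alternatives tried were the Wald test of DESeq2 1.42.0, its size factors in edgeR, no filter, genes above 1% of any library removed, a replicate block, a fit to the compared libraries alone, and each library left out in turn.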

Additional observations from a re-analysis of the deposited data

How the results depend on the processing

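DESeq2 size factors in edgeR and the removal of genes above 1% of a library left every call and direction of the 10 genes as reported. The DESeq2 Wald test called 33 genes for genotype at P4, 3 at P8 and 1580 for age in wild type (798 in edgeR), among them 2 of the 10 (Tenm4 and Tenm1, DESeq2 adjusted p = 0.0323 for the latter). Without the filter on low counts, 339 and 447 genes were called for genotype at P4 and P8, 136 for the difference of these effects and 2058 for age in wild type, among them 5 of the 10, with 0 of the 10 for genotype. A fit to the wild-type libraries alone called 113 genes and 0 of the 10 for age (Tenm4, edgeR adjusted p = 0.115). Of the genes called for age in wild type, 652 were lower and 146 higher in edgeR (647 and 157 with DESeq2 size factors), against 1008 and 572 by the DESeq2 Wald test, 1207 and 851 without the filter, 160 and 3 without wild-type P4 replicate 1, 881 and 457 without P4 replicate 2, and 733 and 566 without P8 replicate 1. The cause of these shifts was not tested.

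The replicate numbers come from the titles, and correlations alone cannot settle whether they pair the libraries. Correlations of same-numbered libraries ran from -0.076 to 0.139, and with a replicate block 3 of the 10 genes passed for age in Kir2.1 in place of 6 (Tenm3 at an edgeR adjusted p of 0.0669, Flrt1 at 0.0521 and Flrt2 at 0.0553 did not). The block moved the P4 genotype difference of Flrt1 to 0.01 and changed no other call or direction among the 10.

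Leaving out 1 library at a time gave 0 to 6 genes called for genotype at P4 (6 without wild-type P4 replicate 1), 0 to 219 at P8 (219 without wild-type P8 replicate 3) and 0 to 1 for the difference of effects. Of the 10 genes, 0 to 1 passed for genotype at P8. For age, 163 to 1338 genes and 0 to 2 of the 10 passed in wild type (163 and 0 when wild-type P4 replicate 1 was left out, 1338 genes when P4 replicate 2 and 1299 when P8 replicate 1 was, and 2 of the 10, Tenm4 and Tenm3, when P8 replicate 2 was), and 1764 to 2169 genes and 1 to 4 of the 10 in Kir2.1 (3029 and 6 with all libraries). Where a wild-type P4 library is left out, the other is assumed to vary like the other groups.

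Signs that turned when 1 library was left out all belonged to differences that had not passed. For genotype at P4 the log2 fold change ran from -0.15 to 0.07 for Adgrl2, from -0.05 to 0.18 for Adgrl3, from -0.30 to 0.09 for Flrt1, from -0.08 to 0.05 for Tenm4 and from -0.26 to 0.06 for Flrt3. At P8 it ran from -0.45 to 0.01 for Tenm2, from -0.33 to 0.06 for Tenm3 and from -0.52 to 0.12 for Flrt1. The difference of effects ran from -0.35 to 0.15 for Tenm1, from -0.02 to 0.45 for Tenm2, from -0.23 to 0.16 for Tenm3, from -0.27 to 0.00 for Tenm4, from -0.44 to 0.20 for Flrt1 and from -0.35 to 0.18 for Flrt2. For age in wild type it ran from -0.17 to 0.14 for Adgrl1, from -0.02 to 0.20 for Adgrl2, from -0.18 to 0.31 for Flrt3 and from -0.36 to 0.11 for Tenm2, and in Kir2.1 from -0.07 to 0.26 for Tenm2. The lowest count of the 10 genes was 104, for Flrt1.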
